A study of Bos taurus with 12 samples.

Results

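Cumulus cells around bovine oocytes at the GV3 stage were compared with those around oocytes at the GV2 stage, on 8 of the 12 arrays of the series: the 4 GV3 arrays and the 4 GV2 arrays. Each array carried amplified RNA of 1 stage in Cy5 and amplified RNA of GV0 cumulus cells in Cy3, labelled with the ULS chemistry. All 4 stages came from slaughterhouse ovaries. Each complex of oocyte and cumulus cells was stripped and its oocyte stained with a DNA dye to read the stage, and 10 tubes of cells were pooled for each RNA extraction. The labels give no age, breed or treatment of the animals. Nor do they tie each pool to its own animals, so a p-value here weighs a difference against pool-to-pool spread only, which may be technical. The GV3 arrays of areas 1 to 4 of 1 slide were each set against the GV2 array of the same area number on another slide, which gives 4 pairs (pair 1 to pair 4). The value of a gene in a pair is the difference of the log2 ratios to GV0, GV3 minus GV2, so a positive value means a higher ratio in GV3. Slide and stage coincide and cannot be told apart.

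The germinal vesicle is the nucleus of the immature oocyte. In the cow its chromatin condenses stepwise from the dispersed GV0 configuration to the compact clump of GV3, while the oocyte's transcription declines and its follicle grows. Cumulus cells are granulosa cells that remain coupled to the oocyte through gap junctions. They divide while the follicle grows, feed the oocyte and hold it in meiotic arrest, and they expand in a hyaluronan matrix after the ovulatory signal. The comparison of GV3 with GV2 asks what differs in these cells between the last steps of condensation.

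The median Cy5 signal of a GV3 array lay between 191 and 230 units, and that of a GV2 array between 132 and 201. In Cy3 the ranges were 283 to 346 on the GV3 slide and 277 to 359 on the GV2 slide. Of the probes, 59.9% to 79.9% were brighter in Cy5 than the negative control spots on the GV3 arrays, and 69.1% to 78.7% on the GV2 arrays. The 31819 probes kept after the filter on dim Cy5 signals include a representative probe for each of 12284 named genes, and having 4 pairs limits how precise each value below can be. Cumulus cell markers were measured for 15 of 16 genes on the list, and 12 of the 15 exceeded the negative control level on all 4 GV3 arrays, against 13 of the 15 on all 4 GV2 arrays.

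No gene passed the test. Limma on the 4 paired differences called 0 of 31819 probes and 0 of 12284 genes at a Benjamini-Hochberg adjusted p under 0.05 (0% of both), and the lowest adjusted p was 0.631. At an unadjusted p under 0.05 limma gave 2479 probes (7.79%) and 1000 genes (8.14%), of which 360 were higher in GV3 (2.93%) and 640 were lower (5.21%). A gene was higher in GV3 in all 4 pairs in 795 cases (6.47%) and lower in all 4 in 1232 (10.0%). The 4 GV3 ratios lay wholly above or wholly below the 4 GV2 ratios in 212 genes (1.73%), 99 of them above and 113 below. The differences were small. The median over genes was -0.02, the 5th and 95th percentiles were -0.35 and 0.31, and 6 genes reached an absolute difference of 1, which is a factor of 2. For 11769 genes (95.8%) the 95% confidence interval of the mean difference lay wholly between -1 and 1, and the median standard error (SE) of a gene was 0.124. The 4 pairs had little in common: across probes, which are not independent replicates, their differences correlated with r between -0.09 and 0.24, highest between pairs 3 and 4. In pooled cells, fewer cells of a type and less RNA per cell cannot be told apart, which holds for every gene below.

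**Figure D1:**
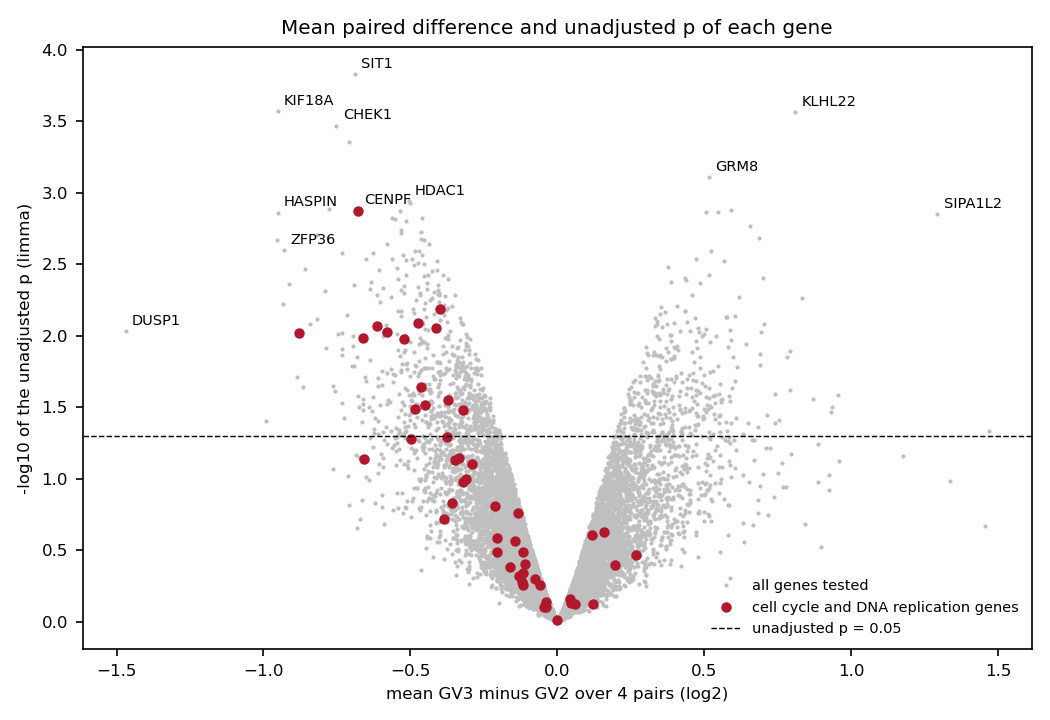
Each point is 1 of 12284 genes, with the mean GV3 minus GV2 difference over 4 pairs (log2) on the horizontal axis and -log10 of limma's unadjusted p on the vertical axis. Red points are the 50 measured cell cycle and DNA replication genes, of which 14 lie on the lower side above the dashed line at an unadjusted p of 0.05 and 0 on the higher side. The lowest adjusted p of any gene was 0.631.

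The lower side of the list was led by genes of several functions. SIT1, a membrane adaptor known from lymphocytes, had log2 ratios to GV0 of -0.35, -0.50, 0.09 and 0.11 on GV3 arrays 1 to 4, against 0.35, 0.20, 0.78 and 0.78 on GV2 arrays 1 to 4. The groups did not overlap, and the 4 paired differences were nearly equal, between -0.70 and -0.68 (mean -0.69, SE 0.08, unadjusted p = 0.000149, adjusted p = 0.631 in limma). KIF18A, a motor protein that steadies chromosomes on the mitotic spindle, had -0.87, -0.54, -1.88 and -1.46 in GV3, against -0.18, 0.24, -0.73 and -0.27 in GV2. It was lower in each pair, by a mean of -0.95 (SE 0.12), but GV3 array 2 lay above GV2 array 3, so the groups overlapped. CHEK1, the kinase of the DNA damage and replication checkpoint, had -1.99, -0.75, -1.78 and -0.93 in GV3, against -1.39, -0.04, -0.78 and -0.25 in GV2 (mean difference -0.75, SE 0.10). CENPF, a protein of the kinetochore, had -0.33, -0.32, -2.01 and -0.97 in GV3, against 0.07, 0.27, -1.24 and -0.01 in GV2 (mean difference -0.68, SE 0.12). In CHEK1 and CENPF the arrays of an area moved together and the stages overlapped, so that the difference shows within pairs rather than between the groups.

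HASPIN, a kinase that marks histones on mitotic chromosomes, had -1.22, -0.28, -1.79 and -2.14 in GV3, against -0.24, 0.24, -0.98 and -0.66 in GV2 (mean difference -0.95, SE 0.17). Its Cy5 signal exceeded the negative control level on 2 of 4 GV3 arrays, against 4 of 4 GV2 arrays. HDAC1, a histone deacetylase, had -0.87, -0.23, -0.35 and -0.48 in GV3, against -0.46, 0.35, 0.09 and 0.10 in GV2. Its paired differences lay between -0.58 and -0.42 (mean -0.51, SE 0.08). EEA1, which tethers early endosomes, had 0.75, 0.96, -1.16 and 0.69 in GV3, against 1.28, 1.58, -0.32 and 1.55 in GV2 (mean difference -0.71, SE 0.10). JKAMP, a membrane protein named for its link to the kinase JNK, was lower by a mean of -0.50, and DDX55, an RNA helicase, by -0.54, both with no overlap of the groups. A different kept probe of JKAMP gave 0.01. The other genes lower in all 4 pairs with the smallest p were ZNF696 (-0.78), the ubiquitin ligase gene TRIM38 (-0.56), the complement regulator gene CFP (-0.55), TMEM60 (-0.53) and MRPS24 of the mitochondrial ribosome (-0.46). SLC30A4, a zinc transporter, was well above background on 0 of 4 GV3 arrays and 4 of 4 GV2 arrays, so the size of its difference is not given.

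On the higher side, KLHL22, an adaptor of a cullin ubiquitin ligase, had 0.54, 0.04, 0.17 and 0.37 in GV3, against -0.15, -0.82, -0.48 and -0.68 in GV2. Each GV3 array lay above each GV2 array, with a mean difference of 0.81 (SE 0.10, unadjusted p = 0.000274, adjusted p = 0.631 in limma). SIPA1L2, of a family that switches off the small GTPase Rap, had 1.93, 0.18, 0.44 and 0.22 in GV3, against 1.07, -1.02, -1.70 and -0.75 in GV2. Its mean difference of 1.29 (SE 0.23) was the largest among the 30 genes with the smallest p and 1 direction in all 4 pairs, and a different kept probe gave 1.22. The groups overlapped through GV2 array 1. GRM8, a glutamate receptor, had 1.31, 1.48, -0.29 and 0.62 in GV3, against 0.85, 0.92, -0.78 and 0.07 in GV2, with paired differences between 0.46 and 0.56 (mean 0.52, SE 0.08). These 3 genes, like the lower ones above, were chosen for 1 direction in all 4 pairs, so that agreement is no separate result. The GV0-relative level of GRM8 varied between areas with an SD of 0.80 in GV3 and 0.79 in GV2, above its mean difference. For SIPA1L2 these SDs were 0.83 and 1.18, below its mean difference.

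Other genes of the higher side act in various nuclear and cellular processes. MED20, a subunit of the Mediator complex that links activators to RNA polymerase II, had 0.33, 0.47, -0.01 and 0.68 in GV3, against -0.04, -0.35, -0.60 and 0.09 in GV2 (mean difference 0.59, SE 0.10). MED1, the Mediator subunit that contacts nuclear receptors, had 1.49, 0.77, 0.24 and -0.10 in GV3, against 1.24, 0.16, -0.65 and -1.16 in GV2 (mean difference 0.70, SE 0.15). Both overlapped between the stages. HIRA, a histone chaperone, had 0.06, 0.25, -0.03 and 0.41 in GV3, against -0.22, -0.39, -0.48 and -0.12 in GV2, and its groups did not overlap (mean difference 0.47, SE 0.10). TAF1D, a factor of RNA polymerase I, differed by 0.51 (SE 0.09) and RAD51B, a homologous recombination protein, by 0.52 (SE 0.10). The others with the smallest p were ZNF79 (0.69), SH3D19 (0.66, an adaptor with SH3 domains), CNPY4 (0.57), UBE2H (0.55, a ubiquitin-conjugating enzyme), PLXDC2 (0.52, a membrane protein), C1H21ORF91 (0.43) and CARS1 (0.38, the cysteinyl-tRNA synthetase). In SH3D19, CNPY4 and PLXDC2 the groups did not overlap. Other kept probes gave 0.11 for ZNF79, and 0.15 and 0.17 for PLXDC2. All 30 genes named here had an adjusted p of 0.631 in limma.

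**Figure D2:**
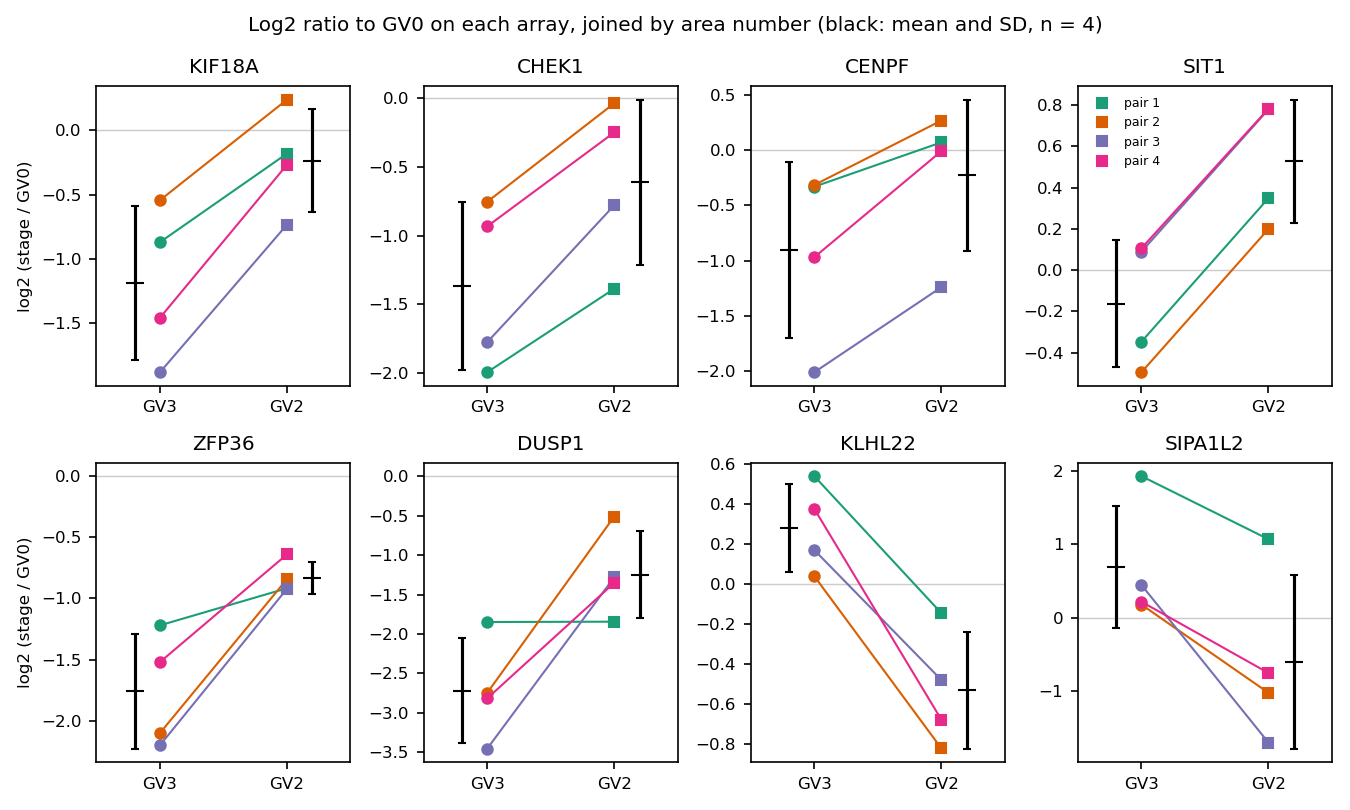
Log2 ratio to GV0 of 8 genes on each array, GV3 at the left and GV2 at the right of each panel, with lines joining arrays of the same area and black bars for the mean and SD of 4 arrays. KIF18A, CHEK1, CENPF and SIT1 are lower and KLHL22 and SIPA1L2 higher in GV3 in each pair, ZFP36 is lower in each pair, and DUSP1 differs by -0.0042 in pair 1.

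The Cy3 channel held GV0 RNA on both slides, so its differences between the slides are not of stage. Single-channel signals were quantile normalised between arrays, unlike the ratios, so Cy5 and Cy3 differences need not add up to the ratio difference. The same limma test on the Cy3 signals alone, GV3 slide minus GV2 slide, called 9 probes at an adjusted p under 0.05 and 5987 probes (18.8%) at an unadjusted p under 0.05. The Cy5 channel alone gave 0 called probes and 2705 (8.50%) at an unadjusted p under 0.05. The absolute Cy3 difference had a median of 0.0764 over probes, and the Cy5 difference 0.117. Among the 30 genes named above, which were chosen by a ratio that contains Cy5, the Cy3 difference was the larger of both in CARS1 (Cy3 -0.19, Cy5 0.18) and C1H21ORF91 (Cy3 -0.36, Cy5 0.09). Over all genes it was the larger in 4303 of 12284. In 6 of the 30 the Cy3 difference had an unadjusted p under 0.05 in limma, as in 2218 of 12284 genes in all. The 6 were CARS1, C1H21ORF91, HASPIN (Cy3 -0.22), SH3D19 (-0.18), UBE2H (-0.16) and RAD51B (-0.14). KIF18A had a Cy5 difference of -1.01 and a Cy3 difference of 0.02, CHEK1 had -0.79 and 0.05, and KLHL22 had 0.81 and -0.02. A slide effect in Cy5 itself was not measured.

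Of the gene lists, the one for cell cycle and DNA replication lay farthest from the median of all genes. Cyclins, replication factors and spindle proteins of dividing cells make up this list of 54 genes, of which 50 were measured. In the limma test 0 were called, and at an unadjusted p under 0.05 14 were lower in GV3 and 0 higher, where 5.21% of all genes were lower. Their mean was below 0 in 42 of 50, as it was in 6614 of 12284 genes in all, and 14 were lower in all 4 pairs, where 10.0% of all genes were. The list's median was -0.21, against -0.02 over all genes. KIF18A, CHEK1 and HASPIN are not on the list and are not counted in these numbers.

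The pairs did not share this pattern equally. The list's median was -0.40 in pair 1, 0.07 in pair 2, -0.35 in pair 3 and -0.33 in pair 4, and 42, 23, 42 and 36 of the 50 genes were lower in these pairs. Without pair 2 the median was -0.34 and 21 genes were lower at an unadjusted p under 0.05 in limma, with 0 called. Without pair 1, 3 or 4 the median was -0.20, -0.20 or -0.21, and 11, 12 or 10 genes were lower at that level. On the single arrays the median ratio to GV0 of the 50 genes was -0.67, -0.23, -0.60 and -0.48 in GV3, against -0.32, -0.22, -0.31 and -0.01 in GV2. GV3 arrays 1, 3 and 4 lay below all GV2 arrays, and GV3 array 2 lay beside GV2 array 2. In the single channels, the list's median was -0.26 in Cy5 and -0.01 in Cy3.

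By role, the mitotic kinases and checkpoint proteins included members lower in each pair. AURKB, the kinase of the chromosomal passenger complex, had -0.94, -0.96, -1.34 and -1.33 in GV3, against -0.29, -0.91, -0.52 and -0.53 in GV2. The groups did not overlap, although GV3 array 1 and GV2 array 2 came close (mean difference -0.58, SE 0.15, and -0.20 and -0.10 from its other kept probes). BUB1B, of the spindle assembly checkpoint, had -1.55, -0.58, -1.44 and -0.99 in GV3, against -0.85, -0.36, -1.0 and 0.10 in GV2 (mean difference -0.61, SE 0.16). Among the motors, KIF20A, which acts in cytokinesis, had -0.52, -0.08, -1.62 and -1.29 in GV3, against 0.26, -0.01, -0.37 and 0.12 in GV2 (mean difference -0.88, SE 0.23). Its paired difference was -0.07 in pair 2 and at most -0.78 in the others. KIF11, the motor that separates spindle poles, differed by -0.41 (SE 0.11).

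Of the cyclins and the machinery that degrades them, UBE2C, the ubiquitin-conjugating enzyme of the anaphase-promoting complex, had -1.50, -1.29, -1.60 and -1.21 in GV3, against -1.02, -1.10, -0.84 and 0.00 in GV2. Its groups did not overlap (mean difference -0.66, SE 0.18). CCNA2, the cyclin of S phase and mitotic entry, had -1.27, -0.29, -1.07 and -1.16 in GV3, against -0.86, -0.05, -0.72 and -0.56 in GV2 (mean difference -0.40, SE 0.10). CCNB2, a mitotic cyclin, differed by -0.48 (SE 0.17), CDC20, which activates the same complex, by -0.37 (SE 0.13), and both were slightly higher in GV3 in pair 2. CDC25C, the phosphatase of mitotic entry, differed by -0.47 (SE 0.12), with a Cy5 signal above the negative control level on 2 of 4 GV3 arrays, against 4 of 4 GV2 arrays. Among the factors that license replication, MCM3 had -1.01, -0.34, -0.58 and -0.75 in GV3, against -0.40, -0.05, -0.33 and 0.19 in GV2 (mean difference -0.52, SE 0.14). MCM2, of the same helicase, differed by -0.45 (SE 0.16), and by -0.17 and -0.06 from its other kept probes. CDC6, the loader of this helicase, differed by -0.47 (SE 0.15), and by -0.03 from its other kept probe. CDK4, the kinase of G1 phase, differed by -0.32 (SE 0.11), and by 0.02 from its other kept probe. At the other end, MCM5 of the same helicase had the highest mean of the list, 0.27, which did not pass an unadjusted p of 0.05.

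**Figure D3:**
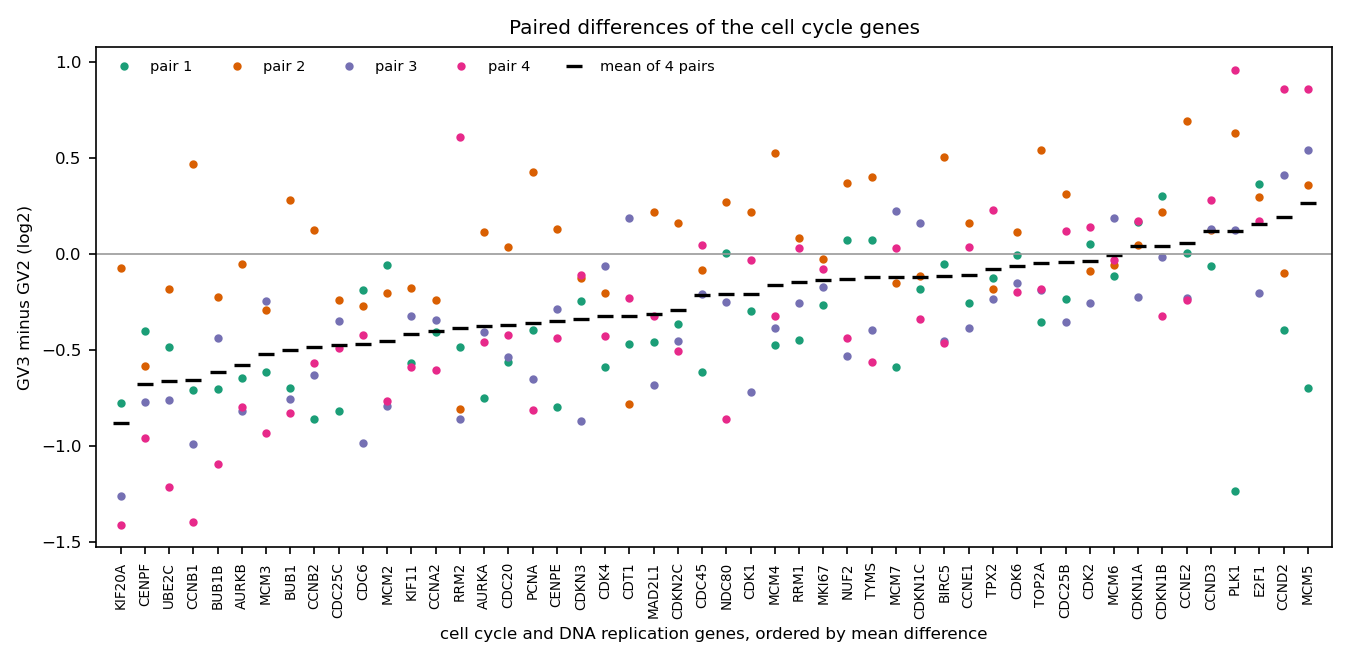
GV3 minus GV2 difference (log2) in each of the 4 pairs for the 50 measured cell cycle and DNA replication genes, ordered by their mean (black bars), from KIF20A at -0.88 to MCM5 at 0.27. Pair 2 (orange) lies above 0 in 27 of 50 genes, and the other pairs lie below 0 in 36 to 42.

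Among immediate early genes and feedback inhibitors of MAP kinases, which respond within minutes to hormones and to handling of tissue, 27 were measured. At an unadjusted p under 0.05, 0 were higher in GV3 and 3 lower (11.1% in either direction, against 8.14% of all genes). DUSP1, the phosphatase that switches off MAP kinases, had -1.85, -2.75, -3.45 and -2.82 in GV3, against -1.84, -0.51, -1.28 and -1.35 in GV2. Its mean difference of -1.47 (SE 0.38, unadjusted p = 0.00932 in limma) was the largest of all genes, but in pair 1 the arrays differed by -0.0042. ZFP36, which destabilises messenger RNAs, had -1.22, -2.10, -2.20 and -1.52 in GV3, against -0.92, -0.84, -0.92 and -0.64 in GV2. Its groups did not overlap (mean difference -0.93, SE 0.18), and pair 1 again had the smallest difference (-0.30). IER5 differed by -0.35 (SE 0.14), and EGR1, a transcription factor of the early response, by -0.45 (SE 0.24, unadjusted p = 0.12). The median of the list was -0.09.

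Oxidative phosphorylation genes encode the respiratory complexes and the ATP synthase of mitochondria. All 73 on the array were measured, and 56 had a mean below 0, as did 6614 of 12284 genes in all. In all 4 pairs 17 were lower in GV3 and 1 higher, where 10.0% and 6.47% of all genes were. At an unadjusted p under 0.05, 7 were lower (9.59%, against 5.21% of all genes) and 0 higher. The median was -0.09, with -0.23, -0.04, -0.07 and -0.07 in pairs 1 to 4, and -0.05 without pair 1. ATP5MF, a subunit of the ATP synthase, had -0.89, -0.42, 0.25 and 0.06 in GV3, against -0.50, 0.13, 0.58 and 0.43 in GV2 (mean difference -0.41, SE 0.09, and -0.38 and -0.05 from its other kept probes). In complex I, NDUFB8 had -0.72, 0.05, -0.50 and -0.17 in GV3, against -0.38, 0.31, -0.06 and 0.40 in GV2 (mean difference -0.40, SE 0.09). NDUFB7 differed by -0.53 (SE 0.13) and NDUFB2 by -0.31 (SE 0.12). The complex III subunits UQCRC2 and UQCRQ differed by -0.32 (SE 0.09) and -0.26 (SE 0.10). COX5B of complex IV differed by -0.25 (SE 0.10), with a Cy5 difference of -0.04 and a Cy3 difference of 0.14. The glycolysis list had 23 measured genes, 0 of them at an unadjusted p under 0.05 in limma, and a median of 0.07.

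Transforming growth factor beta and bone morphogenetic protein signals pass between the oocyte and its cumulus cells. Of 30 measured genes, 4 were higher in GV3 and 3 lower at an unadjusted p under 0.05 (23.3%, against 8.14% of all genes). The median was 0.01. BMP6, a ligand made by oocytes and granulosa cells, had -0.10, 0.72, 0.16 and 0.03 in GV3, against -0.26, -0.09, -0.39 and -0.37 in GV2 (mean difference 0.48, SE 0.13). BMPR1A, a type I receptor, had -0.11, 0.96, 0.46 and 2.07 in GV3, against -0.56, 0.70, -0.24 and 1.75 in GV2 (mean difference 0.44, SE 0.11, and 0.18 from its other kept probe). The antagonist gene NOG differed by 0.58 (SE 0.23) and the pseudoreceptor gene BAMBI by 0.31 (SE 0.10, and 0.12 from its other kept probe). ID3, a target gene of these signals, had -2.58, -1.99, -1.55 and -1.27 in GV3, against -1.10, -1.63, -1.0 and -0.68 in GV2. Its mean difference was -0.75 (SE 0.20), and -0.14 and -0.40 from its other kept probes. SMAD6, an inhibitory SMAD induced by them, differed by -0.67 (SE 0.24), and the receptor gene ACVR2B by -0.26 (SE 0.09). The groups overlapped in BMP6, BMPR1A and ID3.

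Gap junctions and cell contacts tie cumulus cells to the oocyte. Of 18 measured genes of this list 3 were higher in GV3 and 0 lower at an unadjusted p under 0.05 (16.7%, against 8.14% of all genes). The list's median was positive in each pair (0.05, 0.13, 0.14 and 0.05), but in pair 4, 9 genes were higher and 9 lower. In Cy5 alone the list's median was 0.02. GJA1, the connexin that couples cumulus cells, had 0.57, 0.52, 0.14 and 0.24 in GV3, against 0.50, -0.09, -0.24 and -0.29 in GV2 (mean difference 0.40, SE 0.11, and 0.38 from its other kept probe). Its Cy5 difference was 0.34 and its Cy3 difference -0.17. FSCN1, which bundles actin in cell protrusions, had 0.10, 0.14, 0.26 and 0.61 in GV3, against -0.05, -0.69, -0.23 and -0.22 in GV2, with no overlap (mean difference 0.58, SE 0.14). The adhesion gene CDH11 differed by 0.39 (SE 0.11), and by -0.11 and 0.04 from its other kept probes. All 3 had their smallest difference in pair 1.

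In the list of cumulus expansion and the ovulatory response, 1 of 20 measured genes was higher at an unadjusted p under 0.05 and 0 lower. That was 5% of the list, against 8.14% of all genes in either direction. SNAP25, a protein of vesicle fusion that mouse granulosa cells induce at ovulation, had -0.33, -0.48, 0.38 and 0.54 in GV3, against -0.90, -0.96, -0.09 and 0.32 in GV2 (mean difference 0.44, SE 0.09). PTX3, which stabilises the expanded matrix, differed by 0.34 (SE 0.15), and HAS2, the hyaluronan synthase, by 0.36 (SE 0.28), each with 1 pair below 0 (-0.02 and -0.56). PTGS2, TNFAIP6 and LHCGR did not pass the filter on dim probes. Among matrix proteases and inhibitors 3 of 22 were higher and 0 lower at an unadjusted p under 0.05 (13.6%, against 8.14% of all genes). ADAMTS1, a protease of the ovulating follicle, had -0.14, -0.98, 0.40 and -0.20 in GV3, against -1.92, -1.19, 0.20 and -1.49 in GV2. Its paired differences were 1.78, 0.21, 0.20 and 1.29 (mean 0.87, SE 0.30). In pairs 1 and 4 the difference thus exceeded 1 and in pairs 2 and 3 it did not.

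Of the measured steroid genes 10% had an unadjusted p under 0.05 in limma, and of the gonadotropin genes 5.88%, against 8.14% of all genes. HSD3B1, the enzyme that makes progesterone, had -0.07, 0.51, -0.35 and 0.19 in GV3, against 0.49, 0.60, 0.58 and 1.54 in GV2 (mean difference -0.73, SE 0.21), and HSD17B7 differed by 0.42 (SE 0.15). These were 1 lower and 1 higher of 20 measured genes of the list at an unadjusted p under 0.05. CYP19A1, the aromatase that makes oestradiol, had -0.75, 0.96, -0.97 and -0.62 in GV3, against -0.32, 0.06, -0.10 and -0.01 in GV2 (mean difference -0.25, SE 0.30, 95% interval -0.98 to 0.48). GV3 array 2 stood above the other arrays in this gene. FSHR, the receptor of follicle-stimulating hormone, differed by -0.24 (SE 0.24) and STAR, which brings cholesterol into mitochondria, by -0.06 (SE 0.19). AMH, a hormone of growing follicles, differed by 0.39 (SE 0.30), and INHBB, an activin subunit, by -0.62 (SE 0.24), of which pair 1 held -1.55. INHBB was the single gene at an unadjusted p under 0.05 of 17 measured gonadotropin receptor, inhibin and granulosa genes.

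Markers of other cells that a pool could hold were measured beside these genes. For mural granulosa and luteinizing cells, which share genes such as HSD3B1 with cumulus cells, 11 of 13 markers passed the filter, and their summed Cy5 signal was 53154 to 64719 units in GV3 and 53397 to 64491 in GV2. FABP4 differed by 0.37 (SE 0.10) and HSD3B1 as given above. For theca and stroma 12 of 17 passed, LHCGR, PDGFRB, DCN, TAGLN and THY1 being dim, with sums of 13718 to 18245 units in GV3 and 10808 to 18171 in GV2. The theca marker COL1A1 differed by -0.61 (SE 0.24), with a Cy5 difference of -0.18 and a Cy3 difference of 0.41. For the oocyte 17 of 23 passed, GDF9, ZAR1, DAZL and ASTL being dim, with sums of 2222 to 2413 units in GV3 and 2405 to 2599 in GV2. NLRP5 differed by -0.26 (SE 0.09) with a Cy5 difference of 0.15, and KPNA7 by -0.32 (SE 0.11), with -0.12 and 0.19 from its other kept probes. Endothelial markers passed in 9 of 16 genes (1246 to 1257 units in GV3 and 1191 to 1320.1 in GV2), with PECAM1, TIE1 and KDR dim. Leukocyte markers passed in 12 of 21 (2109.8 to 5166 units in GV3 and 1736 to 5819.8 in GV2), and red blood cell markers in 4 of 10 (855 to 1094 units in GV3 and 766 to 1014 in GV2), with HBB and HBM dim. In these 3 lists 0 genes reached an unadjusted p under 0.05 in limma. The cumulus sum was 103440 to 109083 units in GV3 and 97980.4 to 108769 in GV2, and the cumulus median difference was 0.15 in the ratios and 0.04 in Cy5 alone. The part of other cells in the differences was not tested.

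**Figure D4:**
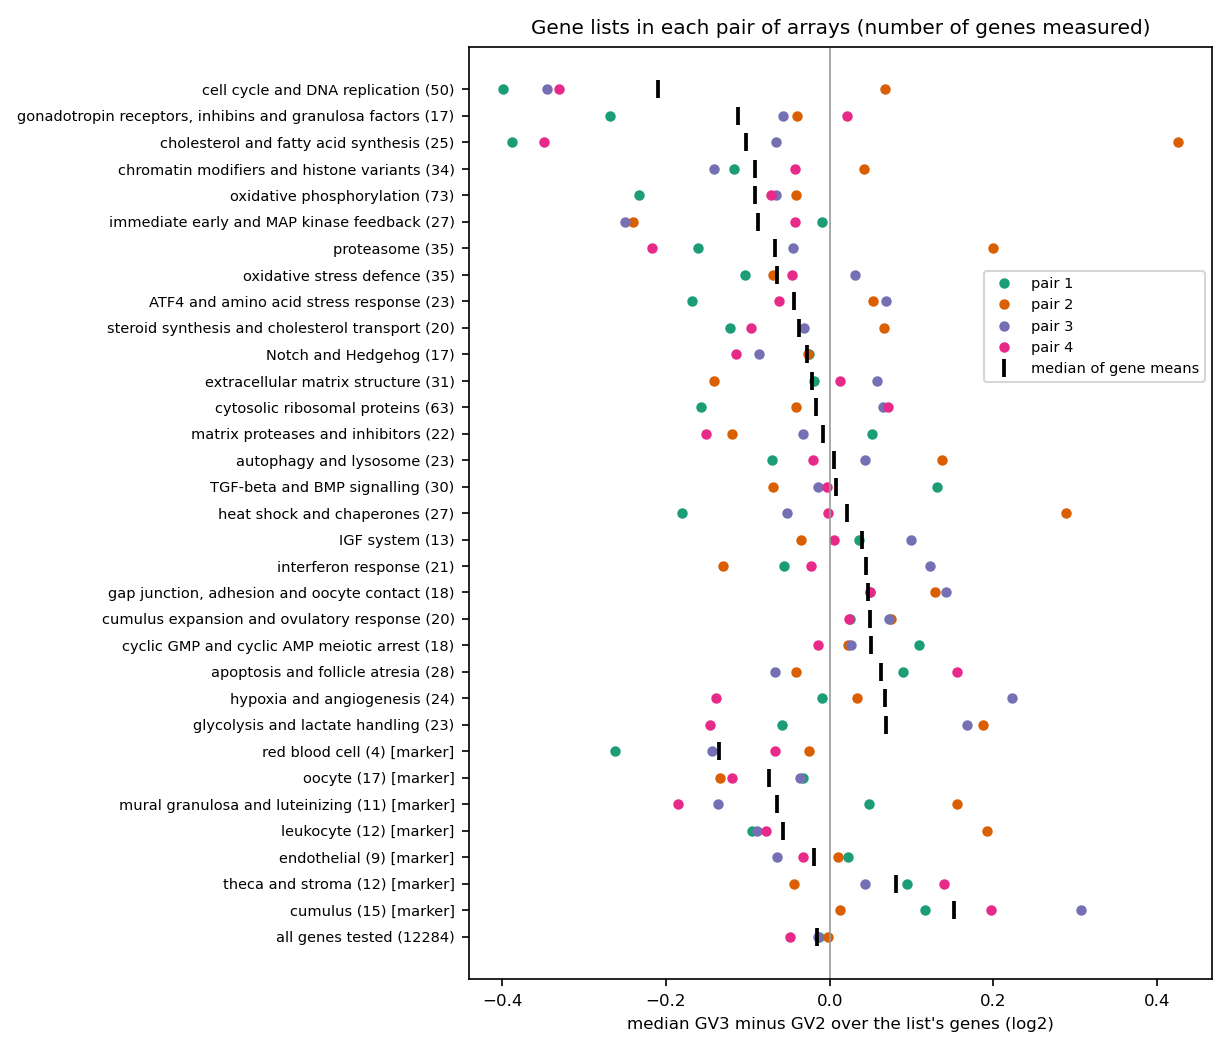
Median GV3 minus GV2 difference (log2) of each gene list in pairs 1 to 4 (coloured points), with the median of the gene means as a black bar and the number of measured genes in brackets. The cell cycle list has the lowest bar (-0.21) with pair 2 at 0.07, and the cholesterol and fatty acid synthesis list runs from -0.39 in pair 1 to 0.43 in pair 2.

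Pair 2 also departed from the others in lipid and stress genes. The cholesterol and fatty acid synthesis list (25 genes) had medians of -0.39, 0.43, -0.06 and -0.35 in pairs 1 to 4, and 22 of 25 genes were higher in GV3 in pair 2 against 3 of 25 in pair 1. On the arrays its median was -0.44, -0.10, -0.08 and 0.09 in GV3, against -0.15, -0.65, 0.05 and 0.57 in GV2, so GV2 array 2 was the lowest. For heat shock proteins and chaperones (27 genes) 23 were higher in pair 2, against 8, 13 and 13 in pairs 1, 3 and 4. BAG3, a partner of the chaperone HSP70, had 0.16, 1.85, 1.98 and 1.79 in GV3, against 0.29, -0.09, 1.41 and 0.43 in GV2 (mean difference 0.93, SE 0.34), and FKBP4, a partner of HSP90, differed by 0.26 (SE 0.10). These were the 2 heat shock genes at an unadjusted p under 0.05, both higher (7.41%, against 8.14% of all genes). Of proteasome genes 3 of 35 were lower at that level (PSMB3 -0.46, PSMB2 -0.42, PSMA2 -0.41) and 1 higher (PSME2 0.26), 11.4% in either direction. Other kept probes of PSMA2 gave -0.22 to -0.0029. The proteasome list had a median of 0.20 in pair 2 and -0.22 to -0.04 in the others.

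In the remaining stress and survival lists, members lay on both sides. The counts that follow are of members at an unadjusted p under 0.05 in limma. Of 28 apoptosis and atresia genes 3 were higher at an unadjusted p under 0.05 (GADD45G 0.70, APAF1 0.48 and MCL1 0.34) and 3 lower (TNFRSF1A -0.41, DFFA -0.37 and FOXO1 -0.34). GADD45G, a growth arrest gene, had -1.24, -0.34, -0.26 and -0.35 in GV3, against -1.32, -1.06, -1.33 and -1.31 in GV2, so that GV3 array 1 lay with the GV2 arrays. Of 35 oxidative stress genes 3 were lower (GSTO1 -0.65, GSR -0.26 and PRDX2 -0.23) and 1 higher (SRXN1 0.27, and 0.05 from its other kept probe). GSTO1, a glutathione transferase, had -0.02, -0.59, -1.67 and -1.09 in GV3, against 0.39, 0.04, -0.60 and -0.59 in GV2, lower in each pair. Its other kept probe gave 0.0028, and that of PRDX2 gave 0.14, so these differences rest on 1 probe each. Of 23 ATF4 and amino acid stress genes 2 were lower (DDIT4 -0.65 and SHMT2 -0.35) and 1 higher, CARS1. The other 3 kept probes of SHMT2 had the opposite sign (0.21, 0.21 and 0.07). In autophagy 1 of 23 was higher (GABARAPL1 0.45). The shares in either direction were 21.4% for apoptosis, 11.4% for oxidative stress, 13.0% for ATF4 and 4.35% for autophagy, against 8.14% of all genes.

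Extracellular matrix genes were lower in 4 of 31 measured at an unadjusted p under 0.05 (COL1A1, FBN1 -0.44, LAMC1 -0.40 and MFAP5 -0.32) and higher in 2 (COL6A2 0.38 and ELN 0.20). LAMC1, a laminin chain of basement membranes, had 0.10, -0.55, 0.09 and -0.07 in GV3, against 0.42, 0.15, 0.37 and 0.25 in GV2, with no overlap. Its other kept probes gave -0.02 and -0.42, and those of ELN gave 0.05 and 0.06. ELN had a Cy5 difference of 0.07 and a Cy3 difference of -0.12. Hypoxia and angiogenesis genes were lower in 3 of 24 at an unadjusted p under 0.05 (CA9 -0.53, EPO -0.38 and ANG -0.33). Yet 15 of the 24 had a mean above 0, and the list's median was 0.07. The Cy5 signal of ANG exceeded the negative control level on 2 of 4 GV3 arrays, against 4 of 4 GV2 arrays. CA9, a carbonic anhydrase induced by low oxygen, had -0.20, -0.76, -1.35 and -0.30 in GV3, against 0.33, -0.36, -0.92 and 0.46 in GV2. In the Notch and Hedgehog list 1 of 17 was lower at an unadjusted p under 0.05, IHH, a Hedgehog ligand of granulosa cells. IHH had -0.98, -0.61, -0.70 and -1.22 in GV3, against -0.50, -0.05, -0.38 and -0.22 in GV2, with no overlap (mean difference -0.59, SE 0.13). STAT2, which carries the type I interferon signal, was lower (-0.49, SE 0.12). It was the single gene of 21 in the interferon list at an unadjusted p under 0.05. The shares in either direction were 19.4% for matrix, 12.5% for hypoxia, 5.88% for Notch and Hedgehog and 4.76% for interferon genes. Over all genes the share was 8.14%.

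Chromatin modifiers were lower in 4 of 34 measured genes at an unadjusted p under 0.05 and higher in 2. HDAC1, given above, EED and SUV39H1 (both -0.28), which serve repressive histone methylation, and HMGN2 (-0.36), a nucleosome-binding protein, were lower. HDAC2, the close relative of HDAC1, had -0.60, 1.17, 0.47 and 0.50 in GV3, against -0.79, 0.61, 0.30 and -0.78 in GV2 (mean difference 0.55, SE 0.20), and EHMT2, a histone methyltransferase, differed by 0.35 (SE 0.12). For SUV39H1 the Cy5 difference was -0.01 and the Cy3 difference 0.29, and for HMGN2 they were -0.15 and 0.15. Among cyclic GMP and cyclic AMP genes, which keep the oocyte in arrest, 1 of 18 was lower and 1 higher at an unadjusted p under 0.05. The lower was IMPDH2 (-0.28, an enzyme of guanine nucleotide synthesis) and the higher PRKAR2B (0.27, a subunit of protein kinase A). NPR2, the receptor through which cumulus cells make cyclic GMP, differed by 0.26 (SE 0.13). Its Cy5 difference was -0.03 and its Cy3 difference -0.30. Of 63 cytosolic ribosomal proteins 1 was higher at an unadjusted p under 0.05 in limma (RPL30 0.30), and of 13 IGF system genes 0 reached that level. The shares in either direction were 17.6% for chromatin, 11.1% for cyclic nucleotide and 1.59% for ribosomal protein genes, against 8.14% of all genes.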

How the data were processed

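Arrays with 2 colours of cumulus cell RNA were analysed, 4 of GV3 and 4 of GV2 with GV0 RNA in Cy3. The deposited scanner tables hold mean and median spot intensity and local background in both channels, per the file headers not normalised, and a flag column of another kind, 0 or 1 per spot, whose rule the authors do not state. The deposited series matrix holds log2 ratios, used as an alternative. They correlated at 1.00 (rounded) with loess ratios of the median signals without background correction, direction stage over GV0, array medians -0.01 to 0.00.

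The members and gene lists were chosen with earlier results of these data known. With limma 3.58.1 under R 4.3.3 (statmod 1.5.0), mean signals were background corrected by normexp (offset 50) with flagged spots left out (9 to 15 probes on GV3 arrays, 9 to 18 on GV2 arrays) and normalised by loess within arrays. Of 43794 probes, those with Cy5 above the mean plus 2 SD of 153 negative control spots on at least 3 of 4 arrays of GV3 or GV2 were kept (11975 were removed). The 4 differences were fitted with lmFit and eBayes and adjusted with Benjamini-Hochberg over 31819 probes. Where a flagged spot is missing, the gene's fit uses the remaining pairs.

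Of the probes 21790 carry 1 symbol and 22004 none. Of 15229 symbols 14114 were current in the RefSeq table of ARS-UCD2.0, 982 were renamed and 133 unmatched. A gene is its brightest kept probe. Named were the 15 genes per direction with 1 sign in all 4 pairs and the smallest p (genes passing the test would have come first), per list the members that passed (at most 6) or the 2 with the smallest p, and fixed genes. Further list members at an unadjusted p under 0.05, the most variable genes and those with the largest mean difference were named after their values were seen. For other kept probes, 43 of 56 had the named probe's sign.

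The area numbers pair the arrays in these data: ratio deviations from the stage mean correlated at 0.499 to 0.667 within an area number and at -0.42 to -0.02 between them, and the Cy3 signals at 0.990 to 0.996 within and 0.929 to 0.971 between. All 8 arrays were closest to their own area. The fit was tested on simulated data. Alternatives changed the block, arrays in the fit, channel, background, signal column, normalisation, filter, flags, threshold, variance prior and left-out pair.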

Additional observations from a re-analysis of the deposited data

Results flagged for a closer look

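Sets of 4 values were examined: paired differences of genes, list medians per pair, and signal levels of the arrays of a stage. In 7 of 208 sets the farthest value stood apart by more than Dixon's limit for 4 values (chance gives about 1 in 20 sets). All 7 were sets of paired differences or list medians. Pair 2 was the one in 5 of them. The cell cycle and DNA replication list had a median of 0.0679 in pair 2, against -0.40 to -0.33 in the others. The leukocyte markers had a median of 0.192 in pair 2, against -0.09 to -0.08. VNN1, a pantetheinase listed with mural granulosa genes, differed by -2.86 in pair 2 and by 2.54 to 3.15 in the others. CLDN11, a tight junction protein, differed by -0.979 in pair 2 and by 1.77 to 2.12 in the others. Its Cy5 signal exceeded the negative control level on 3 of 4 GV3 arrays and 2 of 4 GV2 arrays. LAMC1 differed by -0.694 in pair 2 and by -0.32 to -0.29 in the others. The oxidative phosphorylation list had a median of -0.233 in pair 1, against -0.07 to -0.04 in the others. MFAP5, a microfibril protein, differed by -0.107 in pair 3 and by -0.41 to -0.36 in the others.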

How the results depend on the processing

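The call of 0 probes held under 22 other settings and under 5 more chosen after seeing the data, with the lowest adjusted p at 0.0671 (12 arrays with the replicate block, without replicate 1). At an unadjusted p under 0.05 limma gave 2479 probes with the pairing and 646 without the replicate block, 3494 with 12 arrays and the block and 880 with 12 arrays and no replicate block. Of the 2479, 296 reached a fold of 1.5. Leaving out each pair gave 1849 to 2824 probes with 8 arrays and 2500 to 3554 with 12. The 14 lower cell cycle genes became 8 without the replicate block (8 or 12 arrays), 9 with median spot signals, 10 to 21 without a pair, and 9 to 18 without a pair in the 12-array fit, the highest without replicate 2 both times. The 7 lower oxidative phosphorylation genes became 3 without the replicate block or with median spot signals, and 12 with 12 arrays and the block. The cause was not tested. As a random effect, the area had a within-area correlation of 0.505. Of 168 named genes 144 kept their sign under all 22 settings, the 30 with the smallest p among them, and 0 were called in any. These sign counts were partly fixed in advance. The 30 were chosen for 1 sign in all 4 pairs, so leaving out a pair could not change it. Settings of the block, filter, threshold or variance prior leave a gene's mean difference unchanged unless a spot is missing. Signal over background limits dim genes such as SLC30A4, and 4 pairs of pools limit all: a median gene's 95% interval spanned 0.308 on either side of its mean.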

Other observations

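The genes with the widest spread between pairs were chosen after their values were seen, as were APOE and TMX3 below, which are among those with the largest mean difference. Of the 10 widest, LYSB (-0.20) and C6H4ORF31 (-0.46) had a mean difference below 0 and the others above 0. Of 12254 genes measured in all pairs, 89 had an SD of at least 1 between pairs, and pair 2 was farthest from the middle of the 4 in 32 of them, against 15, 18 and 24 for pairs 1, 3 and 4. VNN1 had ratios to GV0 of -0.36, -1.64, 1.65 and 0.83 in GV3, against -3.35, 1.21, -0.89 and -2.31 in GV2 (SD between pairs 2.89). GV2 array 2 was the highest of the GV2 arrays and GV3 array 2 the lowest of the GV3 arrays. MXRA8, a matrix remodelling protein, differed by 1.49, -2.48, 0.65 and 2.68 in pairs 1 to 4. GATM, an enzyme of creatine synthesis on the cumulus marker list, differed by 1.11, -1.5, 0.94 and 1.66. CARTPT, the precursor of a peptide that in cattle is linked to follicle atresia, had -2.80, -1.66, 1.03 and -0.17 in GV3, against -2.80, 0.09, -1.76 and -2.74 in GV2.

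Stress genes spread in another order. HSPA1A, the inducible HSP70, had 0.34, 3.02, 0.89 and 1.40 in GV3, against 1.04, -0.59, -1.23 and 1.07 in GV2, a mean difference of 1.34 (SE 0.69, unadjusted p = 0.104 in limma, and 1.36 from its other kept probe). It was higher in GV3 in pairs 2, 3 and 4 and lower in pair 1, as was APOE, a lipid carrier (-0.32, 1.48, 1.49 and 1.17, mean 0.95, SE 0.32). Other kept probes of APOE gave 1.10 and 0.22. ZFAND2A, a heat shock induced protein, differed by -2.09, 1.5, 0.40 and 0.86 (mean 0.17, and -0.39 from its other kept probe). CALB1, a calcium-binding protein, had a mean ratio difference of 1.47 (SE 0.58), with a Cy5 difference of 0.21 and a Cy3 difference of -1.20. TMX3, a protein disulfide isomerase, was lower in each pair (-0.85, -0.37, -1.39 and -1.21) with no overlap of the groups. Its mean difference was -0.95 and its Cy5 difference -0.66, but its other kept probe gave 0.12.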
